A study of Mus musculus with 16 samples.

Results

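Heme synthesis and globin genes were followed in the left ventricle of aged mice through 7 genes, Alas1, Alas2, Bpgm, Hba-a1, Hba-a2, Hbb-bs and Hbb-bt. They were taken by symbol from count tables of 55487 genes, and each symbol matched a single row. Hearts came from C57Bl/6J mice, all 24 months old, 8 of them multiparous, with more than 3 pregnancies behind them, and 8 virgin. RNA was taken from the middle section of the ventricle, between base and apex. No animal had received an intervention, and all hearts were flushed with cold saline in place before removal. The question was how far past pregnancies alone change the transcripts of the aged heart. The library names of 4 multiparous hearts carry the code MP and those of the other 4 the code P, and all virgin libraries carry the code AA. The labels do not explain these codes, so parity cannot be told apart from whatever AA marks.

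Heme is built in the mitochondria and the cytosol from glycine and succinyl-CoA, and the first and rate-limiting step is catalysed by 5-aminolevulinate synthase. The housekeeping form of this enzyme is encoded by Alas1 and is made in most tissues, while the form encoded by Alas2 serves developing red cells. The adult mouse alpha globins are encoded by the near-identical genes Hba-a1 and Hba-a2 and the adult beta globins of this strain by Hbb-bs and Hbb-bt. Bpgm encodes bisphosphoglycerate mutase, which makes the glycolytic side product that lowers the oxygen affinity of hemoglobin. In the heart, heme is needed for myoglobin and for the cytochromes of the respiratory chain, and reticulocytes, the youngest circulating red cells, still carry the transcripts of Alas2, Bpgm and the globins.

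The promoters of these genes are shown because Alas2, Bpgm and the globins varied together between libraries and Alas1 did not, as described below. The sequences are the 250 bases upstream of the gene start in RefSeq's annotation of GRCm38.p6, written 5′ to 3′ on the gene's strand, and all 7 genes had an entry. RefSeq's starts differ from those of the GENCODE gene models whose coordinates are given below. Capitals mark GATAA or its reverse complement TTATC, the core of the site bound by the erythroid factor GATA1.
Alas2, chrX:150547167-150547416, plus strand: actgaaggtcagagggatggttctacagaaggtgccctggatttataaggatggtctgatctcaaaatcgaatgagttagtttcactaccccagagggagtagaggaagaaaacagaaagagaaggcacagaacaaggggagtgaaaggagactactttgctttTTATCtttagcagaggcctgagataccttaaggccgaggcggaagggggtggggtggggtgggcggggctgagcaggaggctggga
Bpgm, chr6:34476106-34476355, plus strand: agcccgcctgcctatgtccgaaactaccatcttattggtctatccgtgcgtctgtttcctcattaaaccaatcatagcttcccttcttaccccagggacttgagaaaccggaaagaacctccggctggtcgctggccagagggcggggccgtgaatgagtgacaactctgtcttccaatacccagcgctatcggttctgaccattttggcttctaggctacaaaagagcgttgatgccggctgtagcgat
Hba-a1, chr11:32283422-32283671, plus strand: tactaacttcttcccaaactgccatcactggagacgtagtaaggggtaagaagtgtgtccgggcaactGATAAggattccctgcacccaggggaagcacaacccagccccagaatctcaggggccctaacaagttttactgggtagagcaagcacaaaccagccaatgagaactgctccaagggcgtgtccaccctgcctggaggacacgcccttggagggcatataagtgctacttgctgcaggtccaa
Hbb-bs, chr7:103827929-103828178, minus strand: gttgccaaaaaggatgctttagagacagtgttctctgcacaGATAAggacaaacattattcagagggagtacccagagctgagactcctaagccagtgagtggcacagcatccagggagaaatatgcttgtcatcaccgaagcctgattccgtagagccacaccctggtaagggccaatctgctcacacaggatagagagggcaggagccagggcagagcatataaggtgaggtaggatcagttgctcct
Hbb-bt, chr7:103813924-103814173, minus strand: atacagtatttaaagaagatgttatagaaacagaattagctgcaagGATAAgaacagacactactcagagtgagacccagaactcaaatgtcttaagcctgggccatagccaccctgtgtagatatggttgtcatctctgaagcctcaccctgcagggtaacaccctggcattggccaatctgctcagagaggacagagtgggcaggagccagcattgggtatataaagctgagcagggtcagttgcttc
Alas1, chr9:106247955-106248204, minus strand: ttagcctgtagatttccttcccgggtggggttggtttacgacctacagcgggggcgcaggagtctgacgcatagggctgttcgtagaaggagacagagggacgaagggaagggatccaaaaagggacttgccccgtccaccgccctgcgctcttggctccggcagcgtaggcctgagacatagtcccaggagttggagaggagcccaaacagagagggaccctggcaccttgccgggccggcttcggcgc
The motif was searched on both strands. It occurred 1 time each in the windows of Alas2, Hba-a1, Hba-a2, Hbb-bs and Hbb-bt, and was found in the window of neither Bpgm nor Alas1, whose other RefSeq start held none either. Among 32851 promoter windows of the same length, 22.6% held it, so a match here is a description of these letters. The windows of Hba-a1 and Hba-a2 were identical over all 247 bases that they share, so that of Hba-a2 is not printed.

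Gene counts ranged from 34560606 to 58890976 in 15 libraries and reached 228325238 in virgin 8. The 8 markers of cardiomyocytes, among them myoglobin, summed to between 50618 and 58543 CPM (counts scaled to the size of the library, the unit of all levels below) in multiparous and between 48074 and 63123 CPM in virgin hearts. Markers of kidney tubules summed to 13.2 to 42.7 CPM in multiparous and 24.3 to 153 CPM in virgin hearts, and markers of liver to 5.54 to 376 CPM in multiparous and 4.38 to 230 CPM in virgin hearts. The highest liver sum in virgin hearts was that of virgin 8, where Ttr alone reached 220 CPM. The next virgin library, virgin 1, summed to 31.8 CPM. Multiparous 8 and virgin 6 stood apart in most of the genes described here. The main values that rest on these libraries are given with and without them.

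None of the genes that could be tested differed between multiparous and virgin hearts beyond the spread between libraries. The edgeR quasi-likelihood test (adjusted p under 0.05 over 17813 genes) called 0.0112% of all genes tested, and 0 of the 4 heme synthesis and globin genes that passed the filter on low counts. At an unadjusted p under 0.05, this edgeR test listed 8.12% of all genes tested and 0 of these 4. DESeq2 and limma voom each listed 1, Alas1, and their share over all genes is not given here. Some alternative edgeR fits also listed genes of this set at that level. Among them were Alas1 with the liver markers as a covariate and Bpgm with the kidney markers. Without virgin 6, Alas2, Bpgm and Hbb-bs were listed. None of these was called after adjustment. Alas2, Bpgm and Hbb-bs had higher and Alas1 had lower estimates in multiparous hearts, where 48.6% of all genes tested had an estimate above 0. Hba-a1, Hba-a2 and Hbb-bt did not pass the filter.

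**Figure D1:**
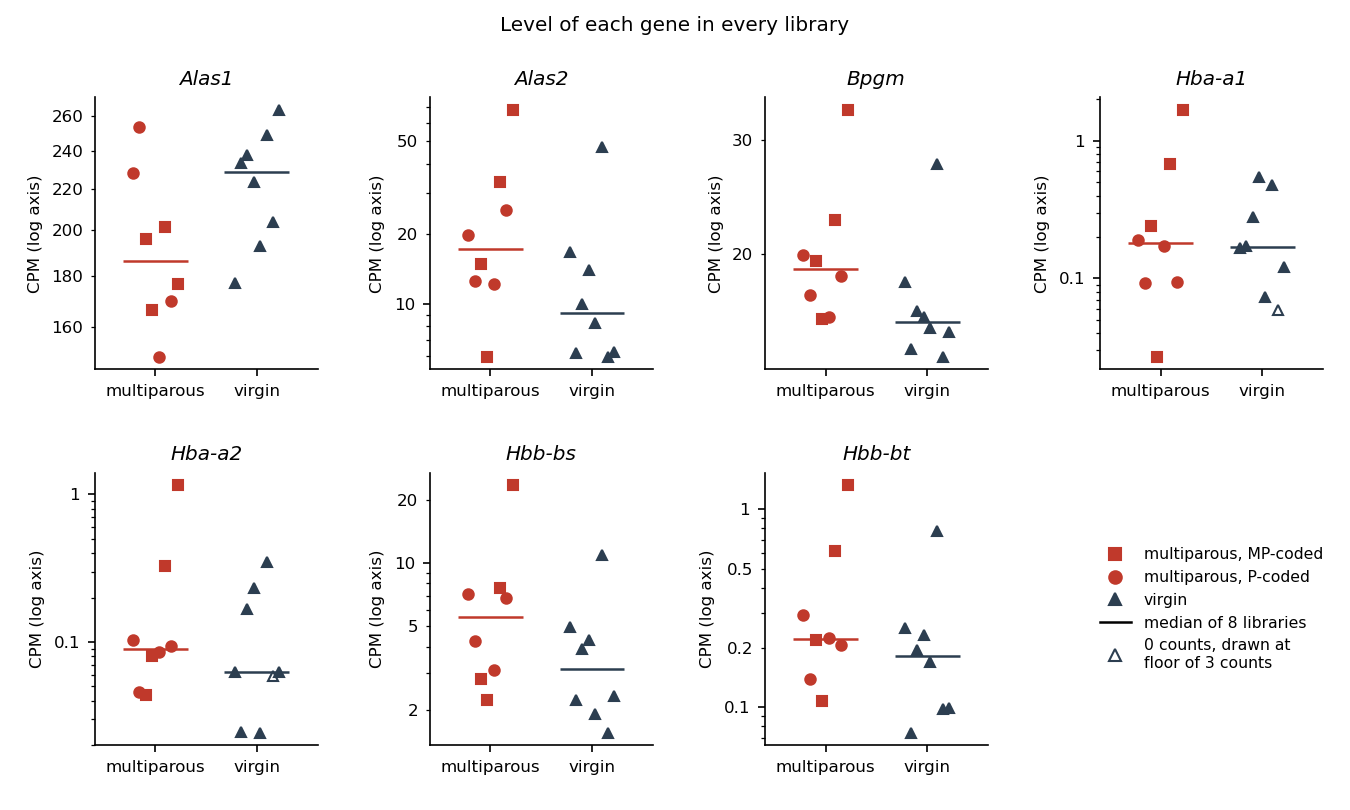
Level of the 7 genes in each library in CPM on log axes, with multiparous hearts on the left (squares MP-coded, circles P-coded), virgin hearts on the right (triangles) and a line at the median of 8 libraries. The groups overlap for every gene, and the highest points of Alas2, Bpgm and Hbb-bs are multiparous 8 (68.2, 33.4 and 23.4 CPM) and virgin 6 (46.9, 27.5 and 10.9 CPM).

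Alas1, the housekeeping enzyme of the first step, had the highest mean level of the 7 genes, also per kilobase of exon. Its level ran from 149 to 254 CPM with a median of 186 CPM in multiparous hearts, against 177 to 264 CPM with a median of 228 CPM in virgin hearts. The groups overlapped over most of their range, and 2 of 8 multiparous libraries lay above the virgin mean. It averaged 192.6 ± 34.7 CPM in multiparous and 222.7 ± 29.5 in virgin hearts (n = 8 each, SD), a log2 fold change of -0.21 (SE 0.10, 95% interval -0.42 to 0.0044, edgeR adjusted p = 0.627). Leaving out 1 library moved the estimate between -0.28 (without multiparous 2, the library with the highest liver sum) and -0.16 (without multiparous 5). With the summed liver markers as a covariate it was -0.27 (edgeR adjusted p = 0.474), and with the kidney markers -0.19 (0.877). Alas1 (ENSMUSG00000032786.16) lies on chromosome 9 at 106233455 to 106248654 on the minus strand of GRCm38. Of its 6174 exonic bases, 465 lie opposite the antisense gene 4930500F10Rik, which had a median of 0.0856 CPM in multiparous and 0.0836 in virgin hearts.

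Alas2, the erythroid form of the same enzyme, varied 11.5-fold between libraries, against 1.77-fold for Alas1. In multiparous hearts it ran from 5.91 to 68.2 CPM with a median of 17.2 CPM, and in virgin hearts from 5.94 to 46.9 CPM with a median of 9.12 CPM. Both groups held libraries at the low end, and 5 of 8 multiparous libraries lay above the virgin mean. The mean was 24.0 ± 19.8 CPM in multiparous and 14.3 ± 13.8 in virgin hearts (n = 8 each, SD). The log2 fold change was 0.76 (SE 0.49, 95% interval -0.26 to 1.78, edgeR adjusted p = 0.753). The estimate was 0.33 without multiparous 8, 1.33 without virgin 6 and 0.89 (edgeR adjusted p = 0.598) without both. The fit without both was added after these libraries were seen to stand highest in these genes. Leaving them out narrows the spread of these same genes, so that fit is a description. Fitted with the summed kidney markers as a covariate it was 1.75 (edgeR adjusted p = 0.811). Alas2 (ENSMUSG00000025270.13) lies on chromosome X at 150547375 to 150570638 on the plus strand. Of its 2403 exonic bases, 311 lie opposite the DNA repair gene Apex2, whose median was 9.78 CPM in multiparous and 9.57 in virgin hearts. The strand setting of the counting is not given in the sources used here, so reads from this stretch may belong to either gene.

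Bpgm varied 2.40-fold between libraries, less than Alas2. It ran from 15.9 to 33.4 CPM with a median of 19.0 CPM in multiparous hearts, and from 13.9 to 27.5 CPM with a median of 15.7 CPM in virgin hearts. The groups overlapped, and 6 of 8 multiparous libraries lay above the virgin mean. Apart from multiparous 8 and virgin 6, the range was 15.9 to 22.6 CPM in multiparous and 13.9 to 18.1 CPM in virgin hearts, and 4 of 7 multiparous libraries lay above every virgin one. The mean was 20.4 ± 5.69 CPM in multiparous and 17.1 ± 4.41 in virgin hearts (n = 8 each, SD), with a log2 fold change of 0.25 (SE 0.16, 95% interval -0.07 to 0.58, edgeR adjusted p = 0.736). The estimate was 0.12 without multiparous 8, 0.38 without virgin 6 and 0.25 (edgeR adjusted p = 0.476) without both, a choice made after seeing the data. With the kidney markers as a covariate it was 0.49. Bpgm (ENSMUSG00000038871.5) lies on chromosome 6 at 34476207 to 34505613 on the plus strand.

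Hbb-bs, a beta globin gene, held 4352 of the globin counts over all libraries, or 87.9%. Its level ran from 2.25 to 23.4 CPM with a median of 5.55 CPM in multiparous hearts, and from 1.56 to 10.9 CPM with a median of 3.13 CPM in virgin hearts. The groups overlapped, and 5 of 8 multiparous libraries lay above the virgin mean. The mean was 7.18 ± 6.89 CPM in multiparous and 4.01 ± 3.03 in virgin hearts (n = 8 each, SD). The log2 fold change was 0.84 (SE 0.47, 95% interval -0.14 to 1.83, edgeR adjusted p = 0.695). The estimate was 0.29 without multiparous 8, 1.24 without virgin 6 and 0.69 (edgeR adjusted p = 0.756) without both, a choice made after seeing the data. With the kidney markers as a covariate it was 1.75.

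The other globins were near the limit of detection, where a count of 0 allows up to 3 counts, or 0.0134 to 0.0844 CPM by library. Hba-a1 ran from 0.0267 to 1.69 CPM with a median of 0.181 CPM in multiparous hearts, and from 0 to 0.545 CPM with a median of 0.170 CPM in virgin hearts. Hba-a2 ran from 0.0436 to 1.15 CPM with a median of 0.0899 CPM in multiparous hearts, and from 0 to 0.351 CPM with a median of 0.0626 CPM in virgin hearts. Virgin 7 had no count of either alpha globin. Hbb-bt, the other beta globin, ran from 0.107 to 1.32 CPM with a median of 0.220 CPM in multiparous hearts, and from 0.0742 to 0.777 CPM with a median of 0.182 CPM in virgin hearts. For all 3 genes the medians of the groups lay close together and the highest library was multiparous 8. Fitted without a filter on low counts, Hba-a1 had a log2 fold change of 0.79 (edgeR adjusted p = 0.717), Hba-a2 of 1.06 (0.680) and Hbb-bt of 0.74 (0.680). Without multiparous 8 the estimates of these 3 genes were -0.05 for Hba-a1, 0.03 for Hba-a2 and 0.19 for Hbb-bt (edgeR adjusted p = 0.989, 0.995 and 0.949). Without virgin 6 they were 1.02 for Hba-a1, 1.52 for Hba-a2 and 1.29 for Hbb-bt (edgeR adjusted p = 0.704, 0.636 and 0.505).

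The counts of single globin genes are uncertain because of their copies. The longest transcripts of Hba-a1 and Hba-a2 were identical at 537 of 538 aligned bases, and those of Hbb-bs and Hbb-bt at 93.1% of aligned bases. Of windows of 100 bases, 56.5% of those of Hba-a1 occur unchanged in Hba-a2 and 62.6% of those of Hbb-bs in Hbb-bt. Reads that did not map uniquely, 2.10% to 2.76% per library, were left out of the deposited gene counts. Levels of the alpha globins and of the beta globins, Hbb-bs included, may therefore be too low. The library kit is also designed to deplete globin transcripts along with ribosomal RNA, and how far it removed those of mouse was not tested. Hba-a1 (ENSMUSG00000069919.7) lies on chromosome 11 at 32283511 to 32284465 and Hba-a2 (ENSMUSG00000069917.7) at 32296489 to 32297298, both on the plus strand. Hbb-bs (ENSMUSG00000052305.6) lies on chromosome 7 at 103826534 to 103828096 and Hbb-bt (ENSMUSG00000073940.3) at 103812524 to 103813996, both on the minus strand.

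Per kilobase of exon, the order of mean levels was the same in both groups. Globins were counted after a kit designed to deplete them, so their place in this order may differ from that in the tissue. Alas1 was highest, with 31.2 CPM per kb in multiparous and 36.1 in virgin hearts. Alas2 (9.99 in multiparous and 5.93 in virgin hearts), Hbb-bs (9.34 in multiparous and 5.23 in virgin hearts) and Bpgm (5.68 in multiparous and 4.77 in virgin hearts) followed. Alas1 exceeded Alas2 in 16 of 16 libraries, whereas Alas2 exceeded Hbb-bs in 9 of 16 and Hbb-bs exceeded Bpgm in 9 of 16, so the order of these 3 does not stand out from their spread. Hbb-bt averaged 0.555 CPM per kb in multiparous and 0.336 in virgin hearts, Hba-a1 0.489 in multiparous and 0.282 in virgin hearts, and Hba-a2 0.362 in multiparous and 0.173 in virgin hearts.

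Across the 16 libraries, Alas2 and Bpgm varied with the globin counts and Alas1 did not. The 4 globin genes summed to 2.46 to 27.6 CPM with a median of 5.89 CPM in multiparous hearts, and to 1.66 to 12.5 CPM with a median of 3.59 CPM in virgin hearts. The 3 libraries with the highest globin sum, multiparous 8, virgin 6 and multiparous 6, were also the 3 highest in both Alas2 and Bpgm, in the same order. In Alas1 they ranked 13th, 3rd and 9th of 16.

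The relation was computed on log2 CPM for the 6 pairs among Alas1, Alas2, Bpgm and the globin sum, with p-values adjusted over these pairs. Alas2 correlated with the globin sum at Pearson's r = 0.958 and Spearman's rho = 0.935 (two-sided permutation p = 1e-05 for each, the smallest that 100000 permutations can give, adjusted p = 2e-05). Bpgm correlated with it at r = 0.926 and rho = 0.903, and Alas2 with Bpgm at r = 0.942 and rho = 0.941, with the same permutation p. Within the 8 multiparous libraries r was 0.957 for Alas2 and 0.925 for Bpgm with the globin sum (exact permutation adjusted p = 0.00193 and 0.00561), and within the 8 virgin libraries 0.949 and 0.906 (exact permutation adjusted p = 0.00134 for each). Without multiparous 8 and virgin 6, the libraries farthest from the median globin sum, r was 0.921 and 0.835. Taken as deviations from the mean of each library code, it was 0.951 and 0.941. All values of a library share its scaling, which Alas1 shares as well.

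Alas1 had r = -0.04 and rho = 0.01 with the globin sum (permutation p = 0.879 and 0.960). Its r was -0.13 with Alas2 and -0.07 with Bpgm (permutation p = 0.632 and 0.795). The sign of all 3 r values turned within each group, where r stayed between 0.0483 and 0.217. Within the 8 multiparous libraries rho was higher, at 0.381 with the globin sum, 0.31 with Alas2 and 0.452 with Bpgm. The exact permutation adjusted p of these was 0.432, 0.462 and 0.401. Within the 8 virgin libraries rho was 0.214, 0.0 and 0.0476 in the same order. Alas2 was described as a gene expressed in heart, like Alas1, when these genes were brought together. In these libraries its level followed the globin counts, while no relation with them was detectable for Alas1.

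**Figure D2:**
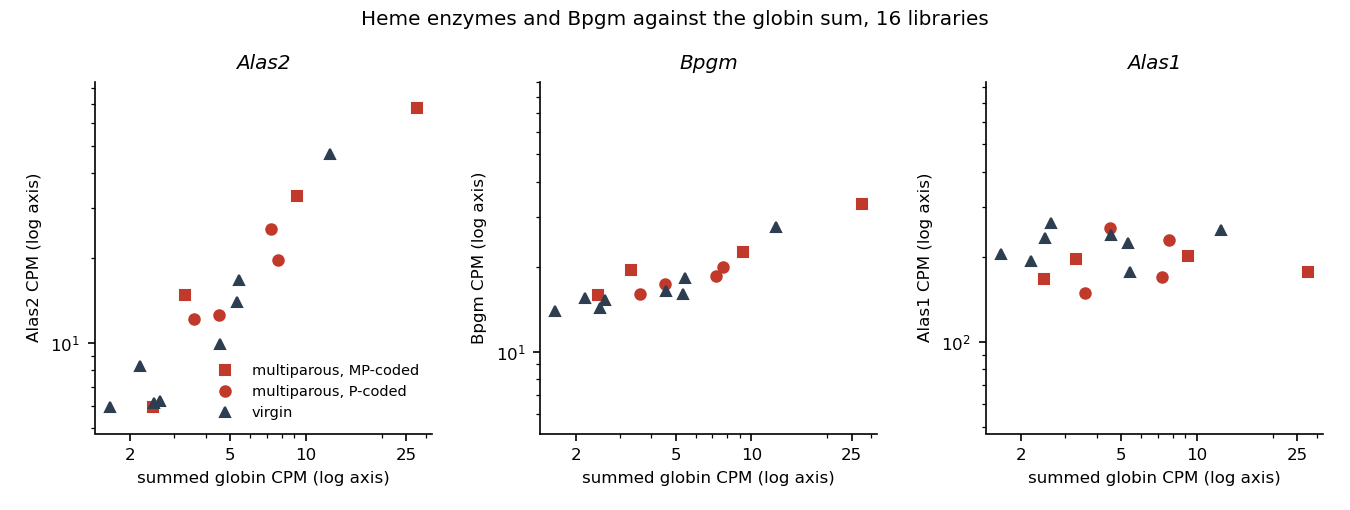
Alas2, Bpgm and Alas1 (vertical, CPM, log axes of equal span) against the summed CPM of the 4 globin genes (horizontal, log axis) in 8 multiparous (squares MP-coded, circles P-coded) and 8 virgin libraries (triangles). Alas2 and Bpgm climb with the globin sum (r = 0.958 and 0.926) and Alas1 stays level (r = -0.04).

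The ratio of Alas2 to Hbb-bs stayed narrow while each gene varied more than 10-fold. A library held 2.54 to 5.27 counts of Alas2 for each count of Hbb-bs, with a median of 3.33 in multiparous and 3.30 in virgin hearts. Because the kit is designed to deplete globin transcripts, this ratio may differ from that in the tissue. A straight line of CPM on the globin sum reached 2.44 CPM of Alas2 at no globin, with a 95% interval of -1.25 to 6.13, and -2.50 CPM (-5.99 to 0.99) without multiparous 8. The same line left 13.8 CPM of Bpgm (12.5 to 15.1) and, without multiparous 8, 12.4 CPM (10.8 to 13.9). The interval for Alas2 included 0 in both fits, and that for Bpgm lay above 0 in both. With all libraries, the Alas2 interval reached above the lowest Alas2 level of 5.91 CPM, so it cannot show that none remains without globin. The slope for Alas2 was 2.61 (2.19 to 3.02) and, without multiparous 8, 3.68 (3.08 to 4.28), so the line depends on that library. In bulk tissue, more cells of a type and more RNA per cell cannot be told apart.

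With the globin sum as a covariate in the edgeR fit, the difference between multiparous and virgin hearts in Alas2 was 0.11 on the log2 scale (95% interval -0.22 to 0.43, edgeR adjusted p = 0.943), against 0.76 without it. That in Bpgm was 0.04 (-0.11 to 0.19, edgeR adjusted p = 0.964), against 0.25. That in Alas1 was -0.23 (-0.46 to 0.0044, edgeR adjusted p = 0.698), against -0.21. The covariate was chosen after seeing the data. Alas2 and Bpgm already followed it, so their smaller estimates are no test of where these transcripts come from. The part of residual blood in the levels of Alas2 and Bpgm was not tested.

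Some other markers of red cells varied with the globins. The list of erythroid markers, 19 of which are in the files, summed to 647 to 726 CPM in multiparous and 616 to 742 in virgin hearts, and 9 were tested. Of these, Mkrn1, a ubiquitin ligase gene, and Slc4a1, the anion exchanger of the red cell membrane, had r = 0.877 and 0.846 with the globin sum, and 0.716 and 0.741 without multiparous 8 and virgin 6. Slc4a1 ran from 0.695 to 15.05 CPM in multiparous and from 0.293 to 11.5 CPM in virgin hearts. A further 6 tested markers had r between -0.27 and 0.34, and between -0.57 and 0.35 without these libraries. Among these are Sptb and Ank1, which encode membrane skeleton proteins that heart muscle also makes, at 278 and 275 CPM in multiparous and 283 and 282 CPM in virgin hearts, and Tmcc2 at 50.5 CPM in multiparous and 48.4 in virgin hearts. The 10 markers that did not pass the filter were low in every library. The highest values were those of Ermap (up to 1.37 CPM in multiparous and 0.752 in virgin hearts), Epb42 (up to 0.872 in multiparous and 1.03 in virgin hearts) and Kel (up to 0.674 in multiparous and 0.459 in virgin hearts), and the other 7, Klf1, Gata1 and Rhag among them, reached at most 0.543 CPM. Markers of platelets, Tubb1 highest among them, had r between 0.388 and 0.633, and between 0.466 and 0.687 without the same libraries. Those with the highest mean CPM were Pf4 (7.49 CPM in multiparous and 7.41 in virgin hearts), Ppbp (3.39 CPM in multiparous and 4.45 in virgin hearts) and Itga2b (2.06 CPM in multiparous and 2.46 in virgin hearts).

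Of the 9 genes that encode heme synthesis enzymes, Alas2 followed the globins, with r = 0.958. The other 8 had r between -0.183 and 0.138 and varied 1.2- to 1.77-fold between libraries. Without multiparous 8 and virgin 6, r was 0.921 for Alas2, and the lowest values were those of Cpox (-0.661), Uros (-0.414) and Fech (-0.372). Of 14 genes for support and transport, Slc25a37 (mitoferrin-1, which imports iron into mitochondria) had r = 0.892, and the next highest r was 0.423. Without these 2 libraries its r was 0.732 and the next highest 0.251. Of 16 genes of iron handling, the highest r was 0.402, that of Steap3, and without the 2 libraries Trf (0.620) and Ftl1 (0.553) were highest. These values are across libraries, with no test of a list, and the lists were chosen with earlier results known.

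**Figure D3:**
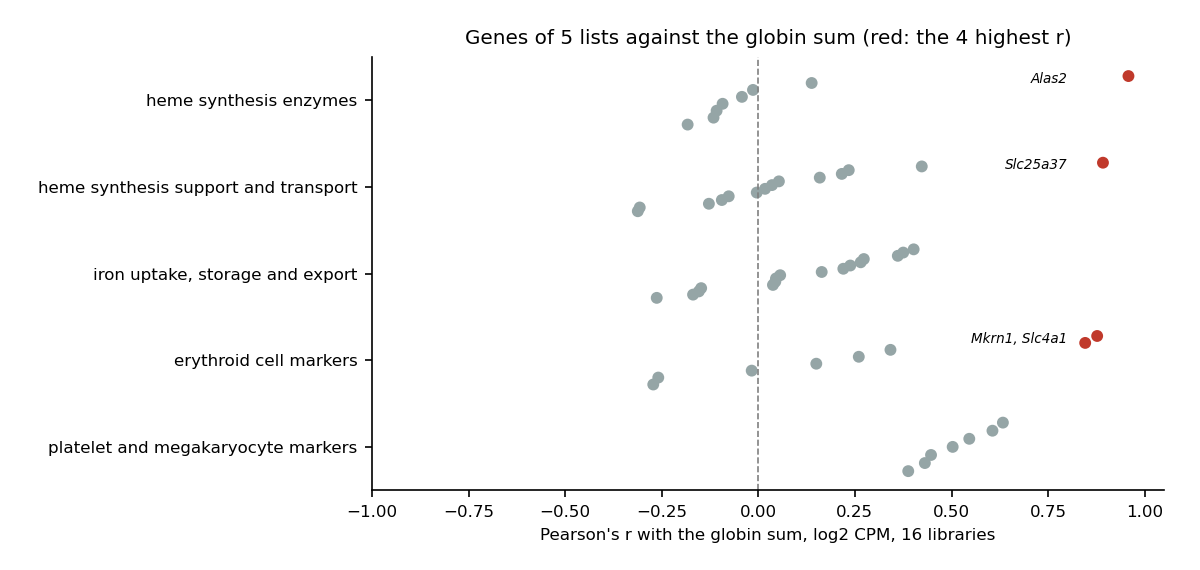
Pearson's r of log2 CPM with log2 globin sum over 16 libraries (horizontal) for tested genes of 5 lists (rows), with the 4 highest r in red and named. Alas2, Slc25a37, Mkrn1 and Slc4a1 lie at 0.846 to 0.958, platelet markers at 0.388 to 0.633, and the other heme synthesis enzymes between -0.183 and 0.138.

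A search over 12444 genes with a mean of at least 1 CPM gave the genes whose level over the 16 libraries was most like that of each gene. For Alas2 these included Tent5c, which encodes a poly(A) polymerase (r = 0.986), Hbb-bs (0.954), Bpgm (0.942) and Ube2l6, an ISG15-conjugating enzyme (0.941). For Bpgm they included Slc25a37 (0.958), Tent5c (0.944), Alas2 (0.942) and Mkrn1 (0.936). For the globin sum they included Alas2 (0.958), Tent5c (0.927), Bpgm (0.926) and Ube2l6 (0.915). The 3 lists therefore share Tent5c, and Alas2 and Bpgm are each in the other's list. For Alas1 none of these appeared, and its 5 were Mrps27, a mitochondrial ribosomal protein (0.868), the transferrin receptor Tfrc (0.861), Ndufs6, a subunit of respiratory complex I (0.852), Srl, the sarcoplasmic reticulum protein sarcalumenin (0.838), and Psmc4, a proteasome subunit (0.831).

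Tfrc, through which cells take up transferrin-bound iron, was followed further as the gene of the iron list nearest to Alas1. It ran from 38.01 to 146 CPM in multiparous and from 75.5 to 162 CPM in virgin hearts. Its r with Alas1 was 0.861 and its rho 0.806, within the multiparous libraries r was 0.944, and within the virgin libraries 0.688. Without the 2 libraries farthest from its median, r was 0.767. With the globin sum its r was 0.04. Because this gene was picked for its likeness over these libraries, the values are a description.

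No enzyme of the heme synthesis pathway passed the test between multiparous and virgin hearts. Of the 9 tested, 2 had a higher and 7 a lower estimate in multiparous hearts, and the median log2 fold change was -0.04, beside -0.0030 over all genes tested. Alad, which condenses aminolevulinate, averaged 26.6 ± 1.054 CPM in multiparous and 27.4 ± 3.10 in virgin hearts. Uros, which closes the porphyrin ring, averaged 20.3 ± 1.58 CPM in multiparous and 20.4 ± 0.649 in virgin hearts.

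Urod averaged 33.9 ± 1.08 CPM in multiparous and 35.2 ± 2.16 in virgin hearts, and Cpox 57.4 ± 6.84 CPM in multiparous and 60.6 ± 5.49 in virgin hearts. Ppox averaged 10.8 ± 0.920 CPM in multiparous and 11.4 ± 1.31 in virgin hearts. Fech, which inserts the iron, averaged 143.9 ± 6.85 CPM in multiparous and 144.8 ± 6.11 in virgin hearts (n = 8 each, SD). The edgeR adjusted p of the 9 genes ran from 0.627, that of Alas1, to 0.989.

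**Figure D4:**
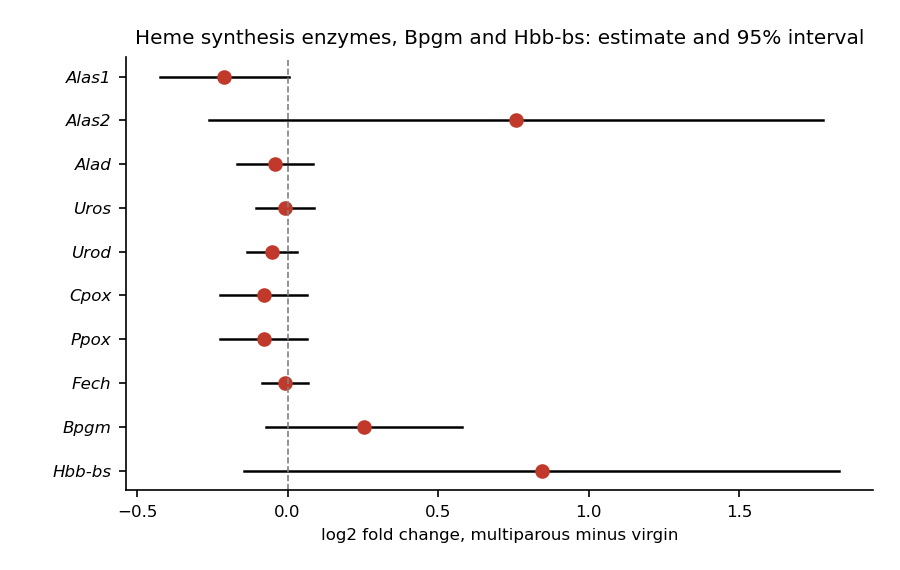
Log2 fold change of 8 heme synthesis enzymes, Bpgm and Hbb-bs (rows), multiparous minus virgin, with the edgeR estimate as a point and its 95% interval as a line. All 10 intervals include 0, and those of Alas2 (-0.26 to 1.78) and Hbb-bs (-0.14 to 1.83) are the widest.

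The neighbouring lists held no called gene either, and the values below are those with the smallest p. Among genes of heme support and transport, Pgrmc1, a heme-binding membrane protein, measured 16.4 ± 1.18 CPM in multiparous and 15.4 ± 1.00 in virgin hearts. Fam210b measured 11.9 ± 0.545 CPM in multiparous and 11.3 ± 0.595 in virgin hearts, and Slc25a37 31.8 ± 7.92 CPM in multiparous and 27.4 ± 5.34 in virgin hearts. The edgeR adjusted p of the 3 was 0.716, 0.732 and 0.741.

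Among genes of heme breakdown and scavenging, Lrp1, the receptor for the heme carrier hemopexin, measured 407 ± 76.2 CPM in multiparous and 318 ± 39.7 in virgin hearts (edgeR adjusted p = 0.266). Hp, the liver-made binder of free hemoglobin, measured 2.43 ± 2.49 CPM in multiparous and 0.932 ± 0.774 in virgin hearts (edgeR adjusted p = 0.493), beside the sums of liver markers given above. Blvra, a biliverdin reductase, measured 7.04 ± 0.813 CPM in multiparous and 6.58 ± 0.457 in virgin hearts. Among genes of iron handling, Trf, the transferrin gene, measured 46.6 ± 17.0 CPM in multiparous and 30.4 ± 5.35 in virgin hearts (edgeR adjusted p = 0.256). The part of liver transcripts in Hp and Trf was not tested. Steap3, which reduces iron in endosomes, measured 40.6 ± 2.79 CPM in multiparous and 36.5 ± 2.85 in virgin hearts (edgeR adjusted p = 0.362), and Hfe 38.8 ± 3.29 CPM in multiparous and 35.5 ± 2.40 in virgin hearts (0.555).

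Of the globins not made in adult red cells, Mb, which encodes the oxygen store of muscle, myoglobin, measured 6428 ± 581 CPM in multiparous and 6786 ± 392.2 in virgin hearts (edgeR adjusted p = 0.807). Cygb, the cytoglobin gene, measured 70.5 ± 10.1 CPM in multiparous and 65.5 ± 6.61 in virgin hearts (edgeR adjusted p = 0.798). The embryonic beta-like globin genes Hbb-bh1, Hbb-bh2, Hbb-y and Hbb-bh0 were at 0 counts in every library, within the floor given above.

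In a list of heme-using proteins and their assembly factors, mostly of the mitochondria, 9 of 10 tested had a lower estimate in multiparous hearts and none passed. The list also holds Cybb, Cyb5a and Cyb5r3, so 9 of 10 is not a count of mitochondrial heme proteins alone. Cox10, which takes part in making heme a for cytochrome oxidase, measured 70.9 ± 3.94 CPM in multiparous and 78.6 ± 5.80 in virgin hearts (edgeR adjusted p = 0.315). Cyc1, cytochrome c1, measured 418 ± 17.8 CPM in multiparous and 446 ± 35.3 in virgin hearts (0.653), and Sdhd 243 ± 11.2 CPM in multiparous and 253 ± 16.2 in virgin hearts (0.771). Among neighbours of Bpgm in glycolysis, 8 of 9 had a lower estimate and none passed, with Gapdh at 2461 ± 115 CPM in multiparous and 2767 ± 189 in virgin hearts (edgeR adjusted p = 0.272). Pgam1 measured 23.7 ± 2.92 CPM in multiparous and 26.2 ± 3.99 in virgin hearts, and Eno1 127 ± 5.65 CPM in multiparous and 133 ± 9.87 in virgin hearts. The genes of either list share libraries and scaling, so their common direction is not a count of independent results.

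Of 11 tested genes reported to regulate Alas1, none passed. Nr1d2, a circadian repressor, measured 112 ± 28.2 CPM in multiparous and 92.9 ± 22.9 in virgin hearts (edgeR adjusted p = 0.723). The corepressor gene Ncor1 measured 238 ± 13.97 CPM in multiparous and 228 ± 13.3 in virgin hearts, and the clock gene Per2 11.1 ± 7.51 CPM in multiparous and 8.42 ± 2.91 in virgin hearts. Of 11 tested erythroid and hypoxia regulators, none passed. The smallest p were those of Vhl (9.51 ± 0.564 CPM in multiparous and 8.81 ± 0.605 in virgin hearts), Epor (1.34 ± 0.179 CPM in multiparous and 1.08 ± 0.267 in virgin hearts) and Egln3 (117 ± 28.7 CPM in multiparous and 136 ± 23.1 in virgin hearts), with edgeR adjusted p of 0.616 to 0.770.

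Markers of red cells and neutrophils held no called gene. Gypc measured 29.7 ± 2.12 CPM in multiparous and 27.3 ± 1.99 in virgin hearts (edgeR adjusted p = 0.563), Mkrn1 20.2 ± 2.78 CPM in multiparous and 18.2 ± 2.73 in virgin hearts, and Rhd 6.30 ± 1.01 CPM in multiparous and 6.92 ± 0.949 in virgin hearts. All 7 tested neutrophil markers had a higher estimate in multiparous hearts, with a median log2 fold change of 0.44. So did all 8 tested macrophage markers, with a median of 0.14 and none called. The genes of each list share libraries and scaling, so their common direction is not a count of independent results. Those with the highest mean CPM were Csf3r (4.16 ± 1.09 CPM in multiparous and 3.19 ± 1.08 in virgin hearts), S100a9 (1.65 ± 0.922 CPM in multiparous and 0.934 ± 0.873 in virgin hearts) and S100a8 (1.31 ± 0.530 CPM in multiparous and 0.978 ± 1.11 in virgin hearts). Cxcr2, with the smallest p, measured 0.951 ± 0.314 CPM in multiparous and 0.615 ± 0.367 in virgin hearts (edgeR adjusted p = 0.596). Summed over the list, neutrophil markers ran from 4.46 to 18.1 CPM in multiparous and from 3.11 to 19.5 in virgin hearts, and their part in the levels of Alas2, Bpgm and the globins was not tested.

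Within the multiparous hearts, the genes were set against the library codes. The edgeR test of 4 MP-coded against 4 P-coded libraries called 0.121% of 18123 genes and 0 of the 5 heme synthesis and globin genes tested. Alas2 averaged 30.5 ± 27.6 CPM in MP-coded and 17.4 ± 6.30 CPM in P-coded libraries (SD, n = 4 each, log2 difference 0.81, edgeR adjusted p = 0.643), and the difference was 0.05 without multiparous 8. Bpgm averaged 22.8 ± 7.52 CPM in MP-coded and 17.9 ± 1.67 CPM in P-coded libraries, a log2 difference of 0.35 (edgeR adjusted p = 0.515) that was 0.11 without that library. Hbb-bs averaged 9.01 ± 9.89 CPM in MP-coded and 5.34 ± 1.96 CPM in P-coded libraries, a log2 difference of 0.74 (edgeR adjusted p = 0.713) that was -0.33 without multiparous 8. Multiparous 8 and multiparous 6, the highest 2 of this group, and multiparous 4, the lowest, are all MP-coded.

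Hbb-bt averaged 0.565 ± 0.549 CPM in MP-coded and 0.215 ± 0.064 CPM in P-coded libraries (log2 difference 1.34, 95% interval -0.02 to 2.705, edgeR adjusted p = 0.462), and the difference was 0.55 without multiparous 8. Alas1 averaged 185.1 ± 16.4 CPM in MP-coded and 200.2 ± 48.9 CPM in P-coded libraries (log2 difference -0.11, edgeR adjusted p = 0.843). Set against the virgin hearts, the MP-coded libraries gave 1.11 for Alas2, 0.42 for Bpgm, 1.18 for Hbb-bs and -0.26 for Alas1. The P-coded libraries gave 0.30, 0.07, 0.42 and -0.16 for the same genes. Hbb-bt passed the filter on low counts in both fits, with 1.31 for MP-coded and -0.05 for P-coded libraries. Hba-a1 passed it only with the MP-coded libraries, at 1.55. None of these genes was called in either fit, and both fits share the virgin libraries. Of the marker lists, that of kidney tubules held genes called in the comparison of the codes, Kap, Slc34a1 and Umod, all higher in MP-coded libraries (log2 difference 3.91, 3.47 and 3.24, edgeR adjusted p = 0.0102, 0.0366 and 0.0444).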

How the data were processed

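RNA of the left ventricular mid section was sequenced as stranded total RNA after ribosomal depletion, as paired reads of 150 bases, per the labels' protocols. The authors deposited raw counts per gene for each of 16 libraries, and per the submitters' processing notes the tools included Trim Galore 0.6.10, STAR 2.7.11b and HTSeq 0.11.1 with GRCm38.p6. The strand setting is not given in the sources used here. Reads not assigned to a gene (26.5% to 33.1% per library, those that did not map uniquely included) were left out. Floors cover counting error only.

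Tests used edgeR 4.0.16 under R 4.3.3 (TMM factors, filterByExpr, quasi-likelihood F-test, Benjamini-Hochberg adjustment at 0.05), for multiparous against virgin and for MP-coded against P-coded libraries. CPM values are TMM-scaled. Correlations used log2 CPM, and permutation p-values are two-sided. Coordinates and exonic lengths are from GENCODE M21 for GRCm38. Fits were tested on simulated counts. Alternatives included DESeq2 1.42.0, limma 3.58.1 (voom), other factors and filters, a replicate block, marker covariates and leaving out each library. The genes, lists and tests were chosen with earlier results of these data known. Genes are named by list: those called, otherwise the 3 with the smallest p, the heme synthesis enzymes, the 3 most abundant blood markers, and the 5 genes most alike. The liver list, the globin covariate and the fit without both multiparous 8 and virgin 6 were added after seeing the data. Some genes that this rule takes are not reported here.

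Replicate numbers did not pair the libraries: same-numbered deviations correlated at -0.1 to 0.335 over 8 pairs, and 1 exceeded 0.1. No 2 libraries of a group agreed within sampling noise. The labels tie no library to a named animal, so p-values measure the spread between libraries.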

Additional observations from a re-analysis of the deposited data

Results flagged for a closer look

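In the 14 groups of 8 libraries (7 genes in each of the groups), the highest library stood far from the next in 10. The rule was applied to CPM without logs, and its chance rate of about 1 in 20 holds for normally distributed values. These levels are skewed upward, so the 10 cannot be set against that rate. The genes share their libraries, so these are not 10 independent signals. In multiparous hearts it was multiparous 8 each time, with Alas2 at 68.2 CPM (next 33.3), Bpgm at 33.4 (22.6), Hba-a1 at 1.69 (0.674), Hba-a2 at 1.15 (0.327), Hbb-bs at 23.4 (7.60) and Hbb-bt at 1.32 (0.613). In virgin hearts it was virgin 6 each time, with Alas2 at 46.9 CPM (next 16.7), Bpgm at 27.5 (18.1), Hbb-bs at 10.9 (4.95) and Hbb-bt at 0.777 (0.251). Alas1 stood apart in neither group.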

How the results depend on the processing

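In 163 alternative fits of single genes between multiparous and virgin hearts, none was called (lowest adjusted p 0.314) and 162 kept the direction. For Hba-a1, Hba-a2 and Hbb-bt these were only the unfiltered fits without 1 library. Among fits outside that count, Hbb-bt had an estimate of -0.05 for P-coded and 1.31 for MP-coded libraries against virgin hearts. The range without 1 library was -0.0493 to 1.13 for Hba-a1 and, between the codes, -0.22 to 0.0246 for Alas1 and -0.33 to 1.07 for Hbb-bs. The count of all genes called, 2 in multiparous against virgin, was 0 without factors, 56 without a filter, 130 with DESeq2, 97 for P-coded and 0 for MP-coded libraries. It was 0 with the kidney, 4 with the liver and 10 with the globin covariate, 0 without both multiparous 8 and virgin 6, and 0 to 55 without 1 library (55 without virgin 7). The replicate block gave 33, where numbers do not pair the libraries. Between the codes, 22 became 7 without factors, 295 with DESeq2, 11 at a mean of at least 1 CPM, and 3 to 197 without 1 library (197 without multiparous 5). The r of Alas1 with the globin sum was 0.016 without factors, 0.084 within multiparous, 0.217 within virgin and 0.154 as deviations from code means (-0.168 to 0.143 without 1 library). With Alas2 it was 0.050, 0.048 and 0.068 (-0.299 to 0.0010), and with Bpgm 0.065, 0.193 and 0.177 (-0.253 to 0.1201), for the last 3 of these settings. The cause was not tested. Globin counts, 85 to 980 per library, limit what the 3 rarer globins can show.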
